A study of Homo sapiens with 19 samples.

Results

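WiDr and HCT116 are human colorectal carcinoma cell lines that were compared here after 96 h with the vehicle DMSO and no inhibitor. The libraries were chosen by group and line alone: the 3 DMSO libraries of WiDr and the 3 DMSO libraries of HCT116, 6 of the 19 libraries of the series. The series tested inhibitors of protein arginine methyltransferases, PRMTs. Its other libraries hold cells given GSK715 (GSK3368715, an inhibitor of type I PRMTs such as PRMT1, 5 µM) in both lines or GSK025 (GSK3235025, an inhibitor of PRMT5) in HCT116. Long-read Oxford Nanopore (ONT) libraries of WiDr were also made. The question for the vehicle libraries is how far the lines differ before any inhibitor acts. The labels give no genotype, passage or named medium. They also leave it unsaid whether the 3 replicates of a line grew apart, so a p-value reflects only how these libraries scatter, which may be technical. The WiDr control columns carry the abbreviation NC. They were read as vehicle because the labels list no other WiDr control, and if they held another treatment every WiDr value below would change its meaning. Some measures moved in opposite directions with GSK715 in the lines: genes with at least 10 counts numbered 18874 to 19055 with GSK715 and 17590 to 18339 with DMSO in WiDr, against 18093 to 18328 with GSK715 and 19079 to 19170 with DMSO in HCT116. Between the WiDr tables the direction was shared in part. Over 9109 genes the response to GSK715 had a Pearson r of 0.422 across genes between short reads and ONT. Of these genes, 5530 moved the same way in both. Among the 264 with a short-read response of at least 4-fold, 230 moved the same way by ONT. The ONT control columns carry the same abbreviation, so this compares the tables with each other only. All WiDr libraries come from 1 count table and all HCT116 libraries from another, so a difference between the lines and a difference in how the tables were made cannot be told apart. For that reason only differences of at least 4-fold were called.

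Both lines are long-established models with different genetics. As background, WiDr is a derivative of the line HT-29. It carries mutated APC and BRAF and keeps its mismatch repair. HCT116 carries mutated CTNNB1 and lacks mismatch repair. The normal colon surface is made of absorptive enterocytes with a villin-rich brush border and of mucus-secreting goblet cells. Both descend from crypt stem cells that are kept by Wnt signalling, and transcription factors such as CDX2, HNF4A and KLF5 hold their intestinal identity. Colorectal tumours keep these programmes to different degrees, and cell lines with few of them often express mesenchymal genes such as VIM instead.

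Library totals were 62009831, 64630670 and 82390261 counts in WiDr and 65787836, 64558688 and 65096452 counts in HCT116. Between 17590 and 18339 genes had at least 10 counts in a WiDr library and between 19079 and 19170 in an HCT116 library. Mitochondrially encoded genes took 6.09% to 6.51% of the counts in WiDr and 8.65% to 9.10% in HCT116. The correlation of log2 CPM across genes was 0.978 to 0.984 between libraries of the same line and 0.723 to 0.727 between libraries of different lines, and no library was a copy of another. Levels below are CPM, the counts scaled by library total and TMM factor to a common size, and log2FC is the log2 fold change of WiDr over HCT116 with an approximate standard error (SE). A gene was called when edgeR's quasi-likelihood test gave a Benjamini-Hochberg adjusted p under 0.05 and the estimated difference was at least 4-fold. In bulk RNA, a lower level in every cell and a smaller share of expressing cells cannot be told apart.

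The lines differed widely. Of 19490 genes tested, 6282 (32.2%) were called, 2609 (13.4%) higher in WiDr and 3673 (18.8%) lower. Without the 4-fold limit, 15407 genes (79.1%) passed the adjusted p, and the libraries of the lines did not overlap for 16208 genes (83.2%), so a passed test or separate libraries alone say little about a single gene here. The median log2FC was -0.08, with quartiles at -1.42 and 1.06. The GSK715 libraries of the same tables, which the vehicle comparison did not use, gave 6790 calls among 19833 genes (34.2%), 3715 higher (18.7%) and 3075 lower (15.5%), and 80.5% passed the adjusted p alone. Of the vehicle calls, 1878 of the 2609 higher genes (72%) and 2322 of the 3673 lower genes (63.2%) were called the same way there. Only 2402 of the higher and 3289 of the lower genes were tested there, and the shares count the rest as not called. The repeated calls were 50.6% of the higher and 75.5% of the lower calls in the GSK715 libraries. Only 13 genes were called in opposite directions, 6 higher and 7 lower in WiDr with DMSO, among them the EGF receptor ligand EREG, named after its values were seen. Against the HCT116 short-read mean, the ONT level of vehicle-treated WiDr lay on the same side as the short-read call for 744 of 850 genes called higher (87.5%) and 766 of 804 called lower (95.3%) with at least 20 CPM in a line, in tables that were normalised separately. Among the named genes called, it lay on the other side for GRB10, SESN2, HOXB13 and IFITM2. The GSK715 values come from cells given the inhibitor and from the same tables, so they repeat the line and the table together.

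**Figure D1:**
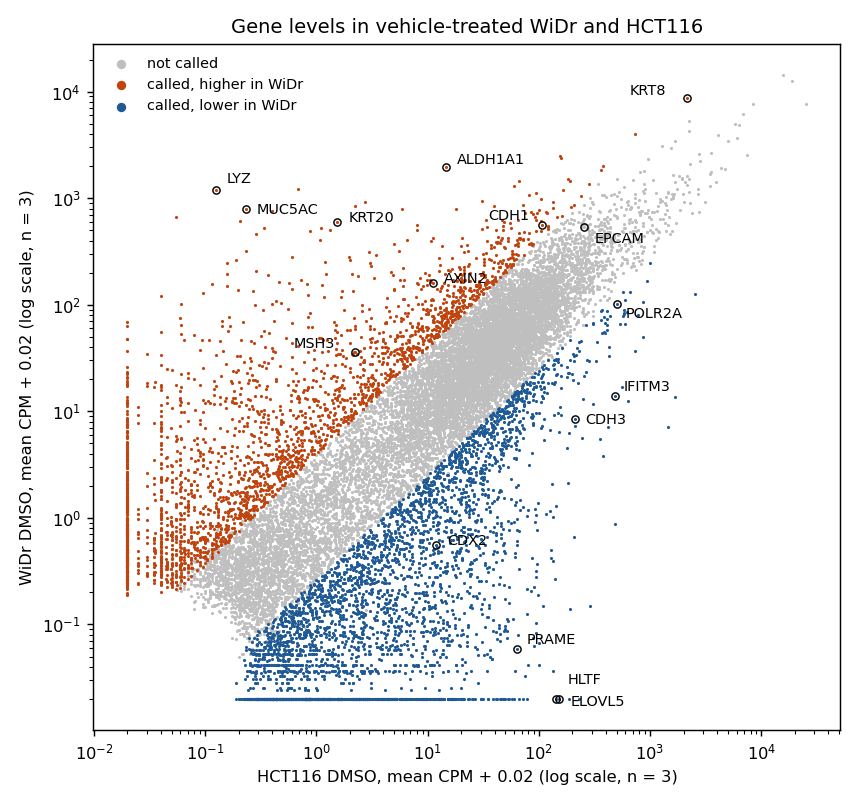
Mean level of each gene in WiDr (vertical axis) and HCT116 (horizontal axis) in CPM with 0.02 added, both on log scales, with 3 libraries a line; genes of chromosome Y are not drawn. Called genes are coloured, and the labelled LYZ, MUC5AC and KRT20 lie far above the diagonal while ELOVL5 and HLTF lie on the lower edge, at 0 CPM in WiDr.

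The most uneven genes were read at well above 20 CPM in 1 line and hardly at all in the other. A mean under 0.5 CPM in a line and at least 20 CPM in every library of the other was met by 89 genes detected in WiDr and by 159 genes detected in HCT116. These limits were set after the levels had been seen, so the genes are described without a test. Among them, 10 genes detected in WiDr had no count in HCT116 and 31 genes detected in HCT116 had no count in WiDr. In the GSK715 libraries, 69 of the 89 genes stayed under 0.5 CPM in HCT116 and 84 had at least 5 CPM in each WiDr library. Of the 159 genes, 115 stayed under 0.5 CPM in WiDr and all 159 had at least 5 CPM in each HCT116 library there. The ONT libraries are a separate reading of vehicle-treated WiDr, in which 1 count is 0.6 CPM in replicate 1 and 0.69 CPM in replicate 2. A level under 0.5 CPM therefore cannot be told from 0 by ONT. The ONT libraries held more than 3 estimated counts over both for 88 of the 89 genes detected in WiDr. They held at most 3 for 121 of the 159 genes detected in HCT116. The median ONT level was 32.7 CPM over the 89 genes and 0.3 CPM over the 159. The exception with most ONT reads, named after its values were seen, was the pseudogene GTF2IP4, with 28.2 and 29 CPM by ONT against 0, 1.1 and 0 CPM in the short-read libraries of WiDr.

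Promoters of these genes are printed for the 3 genes of each set with the highest mean level among those with a promoter in the RefSeq table (GRCh38.p14) and with under 10% of exonic bases shared with another gene. Each sequence runs 250 bases before to 50 bases after the start, 5′ to 3′, with every CG dinucleotide in capitals, because the sets differ in how many they hold. TM4SF4, a tetraspan membrane protein, the gut lectin LGALS4 (galectin-4) and the calcium-binding protein S100P were detected in WiDr. CPA4, a carboxypeptidase, the germline antigen MAGEB2 and ELOVL5, which lengthens polyunsaturated fatty acids, were detected in HCT116.
TM4SF4 (chr3:149474447-149474746, plus strand): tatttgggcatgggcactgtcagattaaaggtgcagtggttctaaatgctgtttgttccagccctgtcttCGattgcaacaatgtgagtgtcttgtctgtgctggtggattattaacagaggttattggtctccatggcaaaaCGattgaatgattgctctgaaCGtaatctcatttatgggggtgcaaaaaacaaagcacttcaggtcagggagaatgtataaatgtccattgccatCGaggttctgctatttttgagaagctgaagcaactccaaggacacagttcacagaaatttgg
LGALS4 (chr19:38812896-38813195, minus strand): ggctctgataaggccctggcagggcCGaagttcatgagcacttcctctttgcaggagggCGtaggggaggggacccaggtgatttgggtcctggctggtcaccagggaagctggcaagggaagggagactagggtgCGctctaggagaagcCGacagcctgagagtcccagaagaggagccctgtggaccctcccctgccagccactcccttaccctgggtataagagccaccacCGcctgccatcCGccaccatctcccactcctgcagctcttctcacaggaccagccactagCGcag
S100P (chr4:6693628-6693927, plus strand): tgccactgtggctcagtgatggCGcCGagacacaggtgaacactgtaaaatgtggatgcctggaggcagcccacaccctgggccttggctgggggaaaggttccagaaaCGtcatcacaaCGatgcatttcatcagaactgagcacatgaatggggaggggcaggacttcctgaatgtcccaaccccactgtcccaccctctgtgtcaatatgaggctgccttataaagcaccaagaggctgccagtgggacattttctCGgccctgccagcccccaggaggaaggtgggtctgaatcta
CPA4 (chr7:130292911-130293210, plus strand): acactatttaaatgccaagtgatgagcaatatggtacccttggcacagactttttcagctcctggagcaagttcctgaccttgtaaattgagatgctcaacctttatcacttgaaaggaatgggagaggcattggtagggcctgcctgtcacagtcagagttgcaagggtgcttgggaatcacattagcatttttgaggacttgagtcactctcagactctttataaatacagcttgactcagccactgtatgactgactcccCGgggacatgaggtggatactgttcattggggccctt
MAGEB2 (chrX:30215313-30215612, plus strand): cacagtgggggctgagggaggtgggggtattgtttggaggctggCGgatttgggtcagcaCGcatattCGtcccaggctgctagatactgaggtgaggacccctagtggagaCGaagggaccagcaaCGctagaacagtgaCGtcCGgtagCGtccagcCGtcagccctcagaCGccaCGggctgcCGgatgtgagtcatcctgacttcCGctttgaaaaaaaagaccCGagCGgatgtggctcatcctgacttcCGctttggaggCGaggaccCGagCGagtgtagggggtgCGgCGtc
ELOVL5 (chr6:53348901-53349200, minus strand): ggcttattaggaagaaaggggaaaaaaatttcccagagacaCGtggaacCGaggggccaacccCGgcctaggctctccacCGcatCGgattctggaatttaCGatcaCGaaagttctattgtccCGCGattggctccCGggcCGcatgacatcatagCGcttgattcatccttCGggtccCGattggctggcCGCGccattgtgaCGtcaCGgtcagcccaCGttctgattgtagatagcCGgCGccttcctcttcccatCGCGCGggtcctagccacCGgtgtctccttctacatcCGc

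The promoters of TM4SF4, LGALS4 and S100P hold 4, 7 and 5 CG dinucleotides, at 0.304, 0.238 and 0.213 of the number that their base composition predicts. Those of CPA4, MAGEB2 and ELOVL5 hold 1, 21 and 26, at 0.062, 0.788 and 1.064 of the predicted number. CPA4 thus stands apart from the other pair of genes detected in HCT116. Over the whole sets, the median observed over expected ratio was 0.327 for 61 matched promoters of genes detected in WiDr and 0.769 for 123 matched promoters of genes detected in HCT116. A ratio of at least 0.6 was reached by 27.9% and 72.4% of them, beside 87.0% of the 7231 promoters of genes with at least 20 CPM in a line and 49.0% of all 27195 promoters. The motif TATAAA, searched on both strands, stood in 16.4% of the promoters of the first set and in 4.88% of the second, beside 5.21% of genes with at least 20 CPM and 12% of all promoters. These shares describe the sequences alone.

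**Figure D2:**
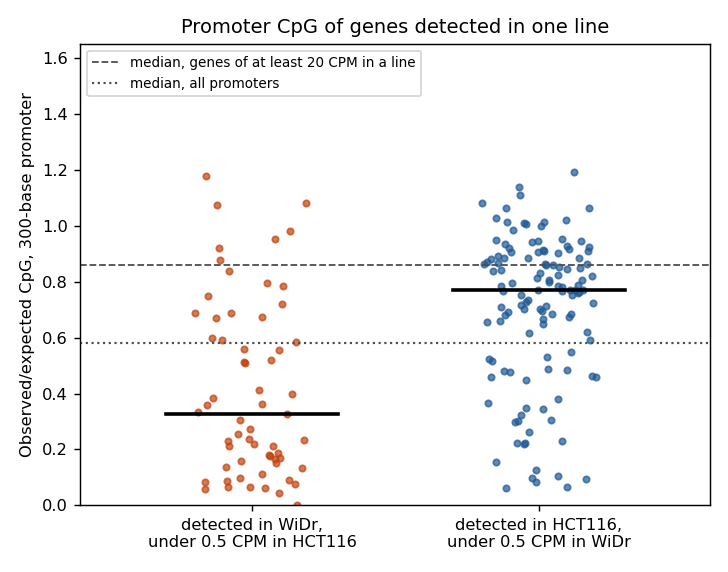
Observed over expected CpG ratio of the 300-base promoters (vertical axis) of genes detected in WiDr and under 0.5 CPM in HCT116 (left, 61 promoters) and of genes detected in HCT116 and under 0.5 CPM in WiDr (right, 123 promoters); bars are medians. The medians are 0.327 and 0.769, and the lines mark 0.86 for promoters of genes with at least 20 CPM in a line and 0.581 for all promoters.

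TM4SF4 had 755, 748 and 766 CPM in WiDr, against 0.253, 0.456 and 0.42 CPM in HCT116. LGALS4 (ENSG00000171747, GRCh38 chromosome 19, 38801671 to 38813364) had 681, 674 and 632 CPM in WiDr, against 0.0595, 0 and 0.045 CPM in HCT116, from 7 counts over the 3 HCT116 libraries (log2FC 14.13, SE 0.14, adjusted p = 2e-11). S100P had 548, 553 and 483 CPM in WiDr, against 0.297, 0.364 and 0.3 CPM in HCT116. The WiDr libraries were all high and the HCT116 libraries all near 0 for these genes, as the limits used to choose them require. CPA4 had 0.132, 0.128 and 0.0998 CPM in WiDr, against 185, 198 and 189 CPM in HCT116. MAGEB2 had 0 CPM in every WiDr library, against 187, 191 and 186 CPM in HCT116. ELOVL5 (ENSG00000012660, GRCh38 chromosome 6, 53267398 to 53349179) had 0 CPM in every WiDr library, against 152, 153 and 155 CPM in HCT116. Here the order was the reverse, and the separation of the lines again follows from the choice of genes. Against a floor of 3 counts over the WiDr libraries HCT116 was at least 12758-fold higher for MAGEB2 and at least 10390.0-fold higher for ELOVL5. ELOVL5 had 0.6 and 0 CPM in the ONT libraries of WiDr.

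Fitted fold changes put genes with no count in the other line, beside LGALS4, among the 12 highest and 12 lowest above 20 CPM. A fitted fold against 0 counts depends on the prior count, so this order is no ranking, and lower bounds are given instead. The membrane and signalling genes TMEM30B (a subunit of lipid flippases), HCAR1 (the lactate receptor), ATP10B (a phospholipid-transporting ATPase), FFAR4 (a receptor for long-chain fatty acids), NMUR2 (a neuromedin U receptor) and CHRM3 (a muscarinic acetylcholine receptor) were higher in WiDr. TMEM30B had 65.6, 70 and 70.4 CPM in WiDr, against 0 CPM in every HCT116 library. HCAR1 had 62.2, 62.8 and 62.6 CPM in WiDr, against 0 CPM in every HCT116 library. CHRM3 had 22.2, 22.1 and 24.1 CPM in WiDr, against 0 CPM in every HCT116 library. Against the floor, WiDr was at least 4569.7-fold higher for TMEM30B, at least 4162-fold for HCAR1, at least 3204-fold for ATP10B, at least 3161-fold for FFAR4, at least 1526-fold for NMUR2 and at least 1518-fold for CHRM3. The secreted FAM3D and CLEC3A, the trypsinogens PRSS1 and PRSS2, which are near-identical copies, and TMEM238L completed the list, with WiDr means of 36.5, 25.8, 23.5, 22.3 and 21 CPM. In the ONT libraries of WiDr, TMEM30B had 42.6 and 43.5 CPM and HCAR1 63.7 and 51.7 CPM.

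At the other end stood genes absent from the WiDr counts. HLTF (ENSG00000071794, GRCh38 chromosome 3, 149030127 to 149086554), a DNA translocase of stalled replication forks whose promoter is known to be methylated in many colorectal cancers, had 0 CPM in every WiDr library, against 141, 138 and 152 CPM in HCT116. NOVA2, a neuronal splicing factor, had 0 CPM in every WiDr library, against 46.9, 51.6 and 51.9 CPM in HCT116. HCT116 was at least 9763-fold higher for HLTF and at least 3397-fold for NOVA2. The germline gene GTSF1, the filamin-binding RFLNB, the inflammasome-family gene NLRP2, the lysophosphatidic acid receptor LPAR3, the cytoskeletal PDLIM3 and the collagen receptor ANTXR1 also had no count in WiDr, with HCT116 means of 78.5, 72.1, 66.8, 59.5, 53.9 and 52.4 CPM. HBE1, an embryonic globin, headed the list at 230.0 CPM in HCT116, but 90.0% of its exonic bases are shared with another gene and its level is uncertain. HLTF and NOVA2 were at 0 in both ONT libraries of WiDr, where 1 count is 0.6 or 0.69 CPM.

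**Figure D3:**
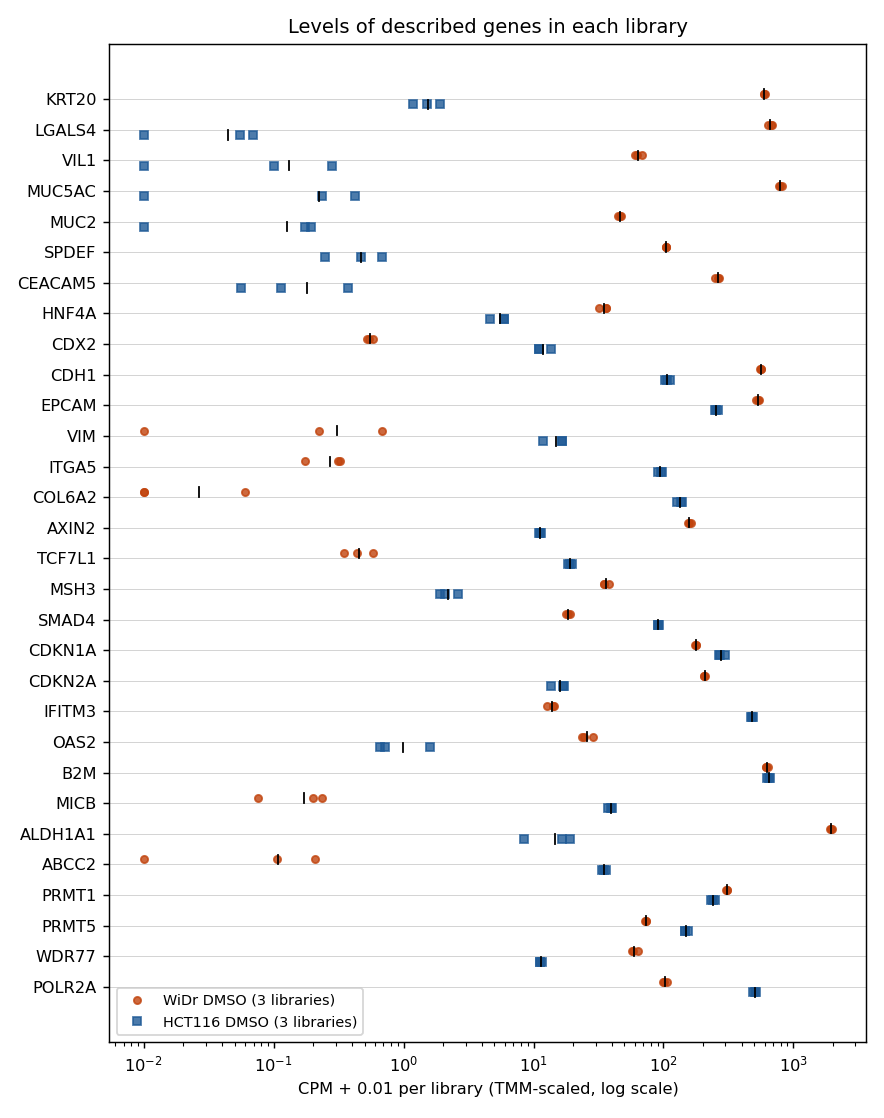
Level of each gene in every library, in CPM with 0.01 added on a log scale; circles are the 3 WiDr libraries, squares the 3 HCT116 libraries and ticks their means. The libraries of a line lie close together for most genes, and the lines overlap only for B2M.

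Secretory and enterocyte genes were mostly higher in WiDr. Over all genes tested, 13.4% were called higher in WiDr and 18.8% lower. Of the goblet and secretory genes, 16 of 23 tested (69.6%) were higher in WiDr, 0 lower and 7 not called. Their median log2FC was 6.32, beside -0.08 over all genes. Their summed level was 3245 to 3287 CPM in the WiDr libraries and 78.9 to 82.6 CPM in the HCT116 libraries. MUC5AC, a gel-forming mucin of the stomach that many colorectal tumours express, had 817, 794 and 770.0 CPM in WiDr, against 0, 0.41 and 0.225 CPM in HCT116 (log2FC 11.87, SE 0.26, adjusted p = 9.8e-10). LYZ, the antibacterial lysozyme, had 1186, 1173 and 1199 CPM in WiDr, against 0.178, 0.137 and 0 CPM in HCT116. MUC2, the main mucin of the colon, had 47, 44.6 and 46.3 CPM in WiDr, against 0, 0.182 and 0.165 CPM in HCT116 (log2FC 8.62, SE 0.33, adjusted p = 2.6e-08). The libraries of the lines did not overlap for these genes, which held for 83.2% of all genes tested. SPINK1, a trypsin inhibitor, averaged 11.3 CPM in WiDr and had no count in HCT116. All 16 higher genes were called the same way in the GSK715 libraries, beside 72% of all genes called higher.

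Of the enterocyte and brush border genes, 12 of 21 tested (57.1%) were higher in WiDr, 3 lower (14.3%) and 6 not called (median log2FC 2.80). The shares over all genes were 13.4% higher and 18.8% lower. KRT20 (ENSG00000171431, GRCh38 chromosome 17, 40875941 to 40885227), the keratin of the mature colon surface, had 589.6, 596 and 600.0 CPM in WiDr, against 1.52, 1.88 and 1.17 CPM in HCT116 (log2FC 8.61, SE 0.11, adjusted p = 5.1e-11), which put it at percentile 98.9 of the tested genes in WiDr and 31 in HCT116. VIL1, villin of the microvilli, had 68.4, 62.3 and 60.4 CPM in WiDr, against 0, 0.0911 and 0.27 CPM in HCT116 (log2FC 9.03, SE 0.34, adjusted p = 2.3e-08). The brush border was not uniform, since ESPN, another actin bundler, and the carbonic anhydrase CA2 were lower in WiDr. ESPN averaged 0.887 ± 0.039 CPM in WiDr and 59.7 ± 2.14 CPM in HCT116 (log2FC -6.07, SE 0.079, adjusted p = 6.4e-11). CA2 averaged 2.8 ± 0.611 CPM in WiDr and 35.4 ± 1.89 CPM in HCT116 (log2FC -3.66, SE 0.15, adjusted p = 4.7e-08). By ONT, WiDr had 26.4 and 19.3 CPM for CA2 and 16.7 and 14.5 CPM for ESPN, above the short-read levels, in a table that was normalised separately. The CEACAM family of surface glycoproteins had 6 of 6 tested members higher in WiDr (median log2FC 7.96, or 6.81 with the gene at 0 in HCT116 set to its floor). CEACAM5, the carcinoembryonic antigen used as a serum tumour marker, had 263, 250.4 and 269 CPM in WiDr, against 0.104, 0.0456 and 0.36 CPM in HCT116 (log2FC 10.56, SE 0.21, adjusted p = 5.9e-10). CEACAM6 averaged 163 CPM in WiDr and 0.446 CPM in HCT116. CEACAM1 averaged 91.1 CPM in WiDr and 0.537 CPM in HCT116.

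The transcription factors of the gut were split. Among 29 tested, 15 were higher in WiDr (51.7%), 6 lower (20.7%) and 8 not called (median log2FC 2.17). The shares over all genes were 13.4% higher and 18.8% lower. HNF4A, a master regulator of enterocyte genes, had 36.3, 35.9 and 31.6 CPM in WiDr, against 4.61, 5.89 and 5.94 CPM in HCT116 (log2FC 2.66, SE 0.12, adjusted p = 7.2e-08). SPDEF, which drives goblet cell maturation, had 105, 104 and 105 CPM in WiDr, against 0.461, 0.668 and 0.24 CPM in HCT116 (log2FC 7.84, SE 0.17, adjusted p = 8.7e-10). FOXA2, a pioneer factor of endoderm, averaged 21.9 ± 0.876 CPM in WiDr and 0.245 ± 0.114 CPM in HCT116. CDX2, the homeobox factor of intestinal identity, ran the other way, with 0.529, 0.574 and 0.511 CPM in WiDr, against 13.6, 11.1 and 11.1 CPM in HCT116 (log2FC -4.47, SE 0.18, adjusted p = 3.8e-08). TFCP2L1 averaged 4.91 ± 0.347 CPM in WiDr and 32.9 ± 2.44 CPM in HCT116. CDX1 had too few counts to test, 29 over the WiDr libraries and 4 over the HCT116 libraries. Thus the WiDr libraries were high in KRT20 and the mucins and low in CDX2.

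Enteroendocrine and neuronal genes were lower in WiDr in 11 of 15 tested (73.3%) and higher in 2 (13.3%), with a median log2FC of -4.24. Over all genes 18.8% were lower and 13.4% higher. The summed level of the list was 28.7 to 32.9 CPM in WiDr and 291 to 299 CPM in HCT116. SCG2, a secretory granule protein, had 0.512, 0.638 and 0.474 CPM in WiDr, against 29, 25.4 and 27.1 CPM in HCT116 (log2FC -5.65, SE 0.14, adjusted p = 2.2e-09). The synaptic vesicle protein SYP averaged 0.308 ± 0.106 CPM in WiDr and 6.74 ± 0.539 CPM in HCT116. NCAM1, the neural adhesion molecule, had 3 counts over the WiDr libraries, and its level in HCT116 was 493 times that in WiDr (95% counting interval 168 to 2392).

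The defining markers of colorectal epithelium were checked in both lines. EPCAM averaged 534 ± 15.2 CPM in WiDr and 255 ± 5.58 CPM in HCT116 and was not called (log2FC 1.07, SE 0.031, adjusted p = 4.7e-09). KRT8 averaged 8638 CPM in WiDr and 2145 CPM in HCT116. KRT18 averaged 4018 CPM in WiDr and 729 CPM in HCT116, and KRT19 1032 CPM in WiDr and 1383 CPM in HCT116. CDX2 was at 0.538 CPM in WiDr, and VIL1, CDH17 and LGALS4 were at 0.12, 0.722 and 0.0348 CPM in HCT116, so 1 of the 9 markers was under 1 CPM in WiDr and 3 in HCT116. Among 13 defining markers of other cell types, PTPRC of leukocytes had 22 counts in all WiDr libraries and 0 in HCT116. CDH5 of endothelium had 0 in both lines, and VWF of endothelium 7 in WiDr and 195 in HCT116. PDGFRB and DCN of fibroblasts had 0 in WiDr, and 64 and 7 counts in HCT116. The collagen gene COL1A1 had 2299 counts in WiDr (11 CPM without TMM scaling) and 3505 in HCT116 (17.9 CPM), and COL3A1 0 in WiDr and 169 in HCT116. In the wider list, 12 of 26 markers were tested, 3 were higher and 7 lower in WiDr, and their summed level was 31.4 to 32.5 CPM in WiDr and 59.1 to 66.4 CPM in HCT116. CD68 averaged 9.67 CPM in WiDr and 38.9 CPM in HCT116 and its log2FC moved to between -1.89 and -1.998, under the 4-fold limit, in 7 settings. The part of such markers in the line differences was not tested.

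Epithelial junction and keratin genes leaned towards WiDr and mesenchymal genes towards HCT116. Of 38 epithelial adhesion genes tested, 9 were higher in WiDr (23.7%) and 2 lower (5.26%), with a median log2FC of 1.08. Over all genes the shares were 13.4% and 18.8%. CDH1, E-cadherin of the adherens junction, had 562, 566 and 548 CPM in WiDr, against 107, 103 and 112 CPM in HCT116 (log2FC 2.38, SE 0.036, adjusted p = 1.3e-10). CLDN1 of the tight junction averaged 57.6 ± 0.589 CPM in WiDr and 1.45 ± 0.605 CPM in HCT116. CDH3, P-cadherin, was lower with 7.69, 8.93 and 8.96 CPM in WiDr, against 209, 209 and 209.9 CPM in HCT116 (log2FC -4.61, SE 0.060, adjusted p = 6.3e-11). The desmosomal cadherin DSC3 averaged 0.0986 CPM in WiDr and 7.84 CPM in HCT116. Of 17 keratins, 9 were higher in WiDr (52.9%) and 2 lower (11.8%), with a median log2FC of 2.01. KRT17, a stress keratin, had 827, 854 and 830.0 CPM in WiDr, against 1.93, 2.19 and 2.43 CPM in HCT116 (log2FC 8.58, SE 0.065, adjusted p = 7.8e-12). KRT80 averaged 556 CPM in WiDr and 8.07 CPM in HCT116. KRT15 was lower, with 6.98 CPM in WiDr and 40.5 CPM in HCT116.

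Of 42 mesenchymal and matrix genes, 23 were lower in WiDr, 8 higher and 11 not called (median log2FC -2.73). COL6A2, a chain of collagen VI, had 0, 0 and 0.0499 CPM in WiDr, against 127, 137 and 139 CPM in HCT116. COL12A1 had 0, 0.0638 and 0 CPM in WiDr, against 99.5, 98 and 101.5 CPM in HCT116. Each WiDr value rests on 4 counts over the 3 libraries. LOXL2, which crosslinks collagen, had 0.413, 0.0479 and 0.437 CPM in WiDr, against 90.2, 102 and 93.4 CPM in HCT116 (log2FC -8.26, SE 0.26, adjusted p = 8.4e-09). VIM, vimentin of mesenchymal filaments, had 0.215, 0 and 0.674 CPM in WiDr, against 11.9, 16.7 and 16.5 CPM in HCT116 (log2FC -5.57, SE 0.69, adjusted p = 7.8e-05). All of these were low in every WiDr library. The lines did not overlap for them, which held for 83.2% of all genes tested. COL17A1, a hemidesmosome collagen of epithelia, COL4A2 of basement membranes and the protease MMP7 were higher in WiDr. COL17A1 averaged 123 CPM in WiDr and 0.815 CPM in HCT116. COL4A2 averaged 19.7 CPM in WiDr and 0.251 CPM in HCT116, and MMP7 49 CPM in WiDr and 1.04 CPM in HCT116. Among integrins and laminins, 6 of 26 were higher in WiDr (23.1%) and 9 lower (34.6%), with a median log2FC of -0.46. The shares over all genes were 13.4% and 18.8%. ITGB6, an epithelial integrin subunit, averaged 56.1 ± 0.649 CPM in WiDr and 0.14 ± 0.125 CPM in HCT116 (log2FC 8.63, SE 0.32, adjusted p = 2.3e-08). LAMA3, a laminin chain of epithelial basement membranes, averaged 150.4 ± 0.389 CPM in WiDr and 9.15 ± 0.227 CPM in HCT116 (log2FC 4.04, SE 0.040, adjusted p = 1.7e-11). ITGA5, the fibronectin receptor subunit, averaged 0.26 ± 0.0822 CPM in WiDr and 94.2 ± 3.52 CPM in HCT116 (log2FC -8.46, SE 0.12, adjusted p = 9e-11).

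**Figure D4:**
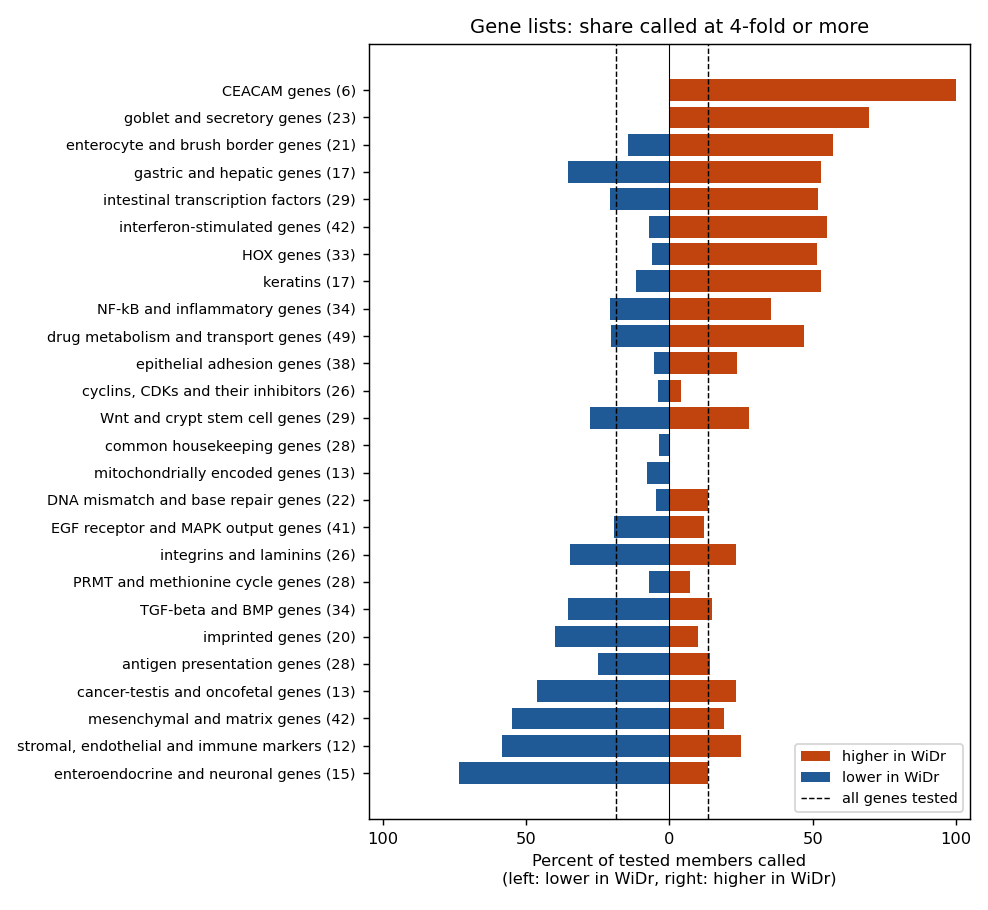
Share of the tested members of 26 gene lists called higher in WiDr (right) or lower (left), in percent, with the number tested in parentheses and lists ordered by median log2FC. The dashed lines mark 13.4% and 18.8%, the shares over all genes tested; all 6 CEACAM genes lie on the right and 11 of 15 enteroendocrine and neuronal genes on the left.

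The Wnt pathway, which keeps crypt stem cells, showed differences in both directions. Of 29 Wnt and crypt genes tested, 8 were higher in WiDr, 8 lower and 13 not called (median log2FC 0.02). This is 27.6% in each direction, beside 13.4% higher and 18.8% lower over all genes. AXIN2 (ENSG00000168646, GRCh38 chromosome 17, 65528563 to 65561647), a direct target and feedback inhibitor of the pathway, had 158, 163 and 154 CPM in WiDr, against 11.3, 11.3 and 11.1 CPM in HCT116 (log2FC 3.82, SE 0.040, adjusted p = 2.4e-11). RNF43, a ligase that removes Wnt receptors, averaged 388 ± 23 CPM in WiDr and 41.6 ± 1.78 CPM in HCT116 (log2FC 3.22, SE 0.054, adjusted p = 2.1e-10). The ligand WNT11 averaged 21.6 ± 0.428 CPM in WiDr and 2.31 ± 0.0748 CPM in HCT116. TCF7L1, a repressing partner of beta-catenin, was lower with 0.43, 0.335 and 0.574 CPM in WiDr, against 18.4, 19 and 19.8 CPM in HCT116 (log2FC -5.39, SE 0.19, adjusted p = 1.6e-08). VSNL1, a neuronal calcium sensor, averaged 0.17 CPM in WiDr and 6.11 CPM in HCT116. TNFRSF19 had no count in WiDr and averaged 5.71 CPM in HCT116. The stem cell factor ASCL2 averaged 1.84 CPM in WiDr with no count in HCT116. LGR5, the stem cell receptor, had too few counts to test, 8 over the WiDr libraries and 51 over the HCT116 libraries. CTNNB1, which encodes beta-catenin, averaged 215 CPM in WiDr and 380.1 CPM in HCT116 (log2FC -0.82). APC averaged 33.1 CPM in WiDr and 23.7 CPM in HCT116 (log2FC 0.48), and neither was called.

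Of 22 DNA repair genes, 3 were higher in WiDr (13.6%), 1 lower (4.55%) and 18 not called (median log2FC -0.27), beside 13.4% higher and 18.8% lower over all genes. MSH3, which recognises larger loops, had 35, 35 and 38.1 CPM in WiDr, against 2.08, 2.6 and 1.89 CPM in HCT116 (log2FC 4.04, SE 0.13, adjusted p = 7.7e-09). MSH6, a subunit of the mismatch sensor, averaged 36.7 CPM in WiDr and 73.6 CPM in HCT116 and was not called. MBD4, a glycosylase for mismatched thymine, was higher, with 66 ± 4.03 CPM in WiDr and 14.2 ± 2.94 CPM in HCT116. NEIL2, a base excision glycosylase, was lower, with 3.62 ± 0.708 CPM in WiDr and 62.9 ± 4.28 CPM in HCT116 (log2FC -4.12, SE 0.13, adjusted p = 8.1e-09).

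CDKN1A, the cell cycle inhibitor p21, averaged 177 ± 1.43 CPM in WiDr and 279 ± 14.4 CPM in HCT116 (log2FC -0.66). MDM2, a ubiquitin ligase, averaged 89.2 ± 3.29 CPM in WiDr and 107 ± 6.2 CPM in HCT116 (log2FC -0.26), and neither of these was called. ZMAT3, an RNA-binding protein, had 5.82, 5.38 and 6.15 CPM in WiDr, against 61.9, 57.9 and 65.2 CPM in HCT116 (log2FC -3.41, SE 0.078, adjusted p = 1.2e-09). CYFIP2 averaged 8.37 CPM in WiDr and 110.2 CPM in HCT116, and TP53INP1 1.38 CPM in WiDr and 25.6 CPM in HCT116. SESN2, a stress-induced regulator of growth signalling, ran the other way with 202, 202 and 197 CPM in WiDr, against 24, 25.9 and 22.9 CPM in HCT116 (log2FC 3.04, SE 0.049, adjusted p = 1.7e-10). By ONT, however, vehicle-treated WiDr had 21 and 20 CPM, under the HCT116 short-read level. The kinase PLK2 averaged 813 CPM in WiDr and 133 CPM in HCT116, and the secreted factor GDF15 541 CPM in WiDr and 119.7 CPM in HCT116. Among 26 cyclins, kinases and their inhibitors, CDKN2A and CDKN1C were called, 3.85% in each direction. Over all genes 13.4% were higher and 18.8% lower. Leaving out a replicate added at most 1 more in a direction. CDKN2A, which encodes p16 and p14ARF, had 206, 207 and 209 CPM in WiDr, against 17, 16.8 and 13.7 CPM in HCT116 (log2FC 3.71, SE 0.077, adjusted p = 6.8e-10). CDKN1C averaged 1.13 ± 0.118 CPM in WiDr and 23.4 ± 0.629 CPM in HCT116, while the ONT libraries of WiDr had 19.2 and 19.3 CPM, near the HCT116 level.

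EGF receptor and MAPK genes were called in 5 of 41 cases as higher in WiDr and in 8 as lower (median log2FC -0.33), which is 12.2% and 19.5%, close to the 13.4% and 18.8% over all genes. ERBB3, a receptor that pairs with other family members, had 186, 181 and 177 CPM in WiDr, against 35.1, 31.6 and 32.2 CPM in HCT116 (log2FC 2.46, SE 0.048, adjusted p = 5.1e-10). The ligand BTC averaged 6.52 CPM in WiDr and 0.69 CPM in HCT116, and the feedback inhibitor SPRY1 39.3 CPM in WiDr and 7.78 CPM in HCT116. FGFR1 had 1.98, 0.909 and 1.48 CPM in WiDr, against 66.3, 72.2 and 66.7 CPM in HCT116 (log2FC -5.55, SE 0.19, adjusted p = 1.5e-08). INSR, the insulin receptor, averaged 2.97 CPM in WiDr and 52.4 CPM in HCT116. The immediate early factor EGR1 averaged 54.9 CPM in WiDr and 388 CPM in HCT116 (log2FC -2.82, SE 0.048, adjusted p = 2.2e-10). EGFR, ERBB2, BRAF and the MAPK phosphatase DUSP6 were not called. EGFR averaged 106 CPM in WiDr and 136 CPM in HCT116, and ERBB2 98.5 CPM in WiDr and 61.4 CPM in HCT116. BRAF averaged 79.3 CPM in WiDr and 35.5 CPM in HCT116. DUSP6 averaged 167 CPM in WiDr and 223 CPM in HCT116. In the TGF-beta and BMP list, 5 of 34 were higher in WiDr (14.7%, near the share over all genes) and 12 lower (35.3%). The median log2FC was -0.79. SMAD4 (ENSG00000141646, GRCh38 chromosome 18, 51028394 to 51085045), the shared mediator of both branches, had 18.4, 17.9 and 18.9 CPM in WiDr, against 90.9, 92.3 and 90.7 CPM in HCT116 (log2FC -2.31, SE 0.043, adjusted p = 3.8e-10). The BMP target ID3 had 0, 0.431 and 0.15 CPM in WiDr, against 75.9, 79.4 and 77.3 CPM in HCT116 (log2FC -8.64, SE 0.34, adjusted p = 3.4e-08). SMAD9 averaged 0.389 CPM in WiDr and 5.24 CPM in HCT116, and the coreceptor TGFBR3 2.26 CPM in WiDr and 25.2 CPM in HCT116. The inhibitor SMAD7 had 43.3, 44.9 and 42.7 CPM in WiDr, against 2.01, 2.2 and 1.76 CPM in HCT116 (log2FC 4.45, SE 0.098, adjusted p = 9.6e-10). The ligand BMP2 averaged 10 CPM in WiDr and 0.386 CPM in HCT116, and TGFB2 13.8 CPM in WiDr and 0.657 CPM in HCT116. TGFBR2, which is often truncated in tumours without mismatch repair, averaged 153 ± 2.06 CPM in WiDr and 56.4 ± 1.36 CPM in HCT116 and was not called (log2FC 1.44).

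HOX genes, which keep the position along the body axis, were higher in WiDr in 17 of 33 tested (51.5%) and lower in 2 (6.06%). Over all genes 13.4% were higher and 18.8% lower. The median log2FC of the HOX genes was 2.10. HOXB9 had 347, 352 and 359 CPM in WiDr, against 21.2, 18.8 and 19.3 CPM in HCT116 (log2FC 4.15, SE 0.050, adjusted p = 4.4e-11). HOXA11 averaged 77.6 CPM in WiDr and 5.16 CPM in HCT116, and HOXA2 8.04 CPM in WiDr and 0.18 CPM in HCT116. HOXD8 and HOXB13 were the 2 lower members. HOXD8 averaged 0.123 CPM in WiDr and 11.6 CPM in HCT116, and HOXB13 2.84 CPM in WiDr and 13.4 CPM in HCT116. By ONT, WiDr had 10.8 and 16.6 CPM for HOXB13.

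Over all genes 13.4% were higher in WiDr and 18.8% lower. Interferon-stimulated genes were higher in WiDr in 23 of 42 tested (54.8%) and lower in 3 (7.14%), with a median log2FC of 2.16. Of these 26 calls, 14 were made the same way in the GSK715 libraries, beside 4200 of 6282 over all genes. OAS2, which senses double-stranded RNA, had 23.4, 24.5 and 28.9 CPM in WiDr, against 1.58, 0.714 and 0.645 CPM in HCT116 (log2FC 4.70, SE 0.30, adjusted p = 8.7e-07). IFIT3, an antiviral effector, had 65.4, 63.5 and 62.1 CPM in WiDr, against 3.29, 3.3 and 2.52 CPM in HCT116 (log2FC 4.39, SE 0.10, adjusted p = 1.4e-09). The chemokine CXCL10 had 32.9, 36.1 and 33 CPM in WiDr, against 0, 0.0607 and 0 CPM in HCT116. The membrane proteins IFITM3 and IFITM2 were lower in WiDr by short reads. IFITM2 averaged 18.3 CPM in WiDr and 130.5 CPM in HCT116, but ONT gave 233 and 217 CPM in WiDr, above the HCT116 level, and 16.8 and 17.9 CPM for IFITM3. IFITM3 had 14.2, 14.4 and 12.7 CPM in WiDr, against 468, 483 and 487 CPM in HCT116 (log2FC -5.12, SE 0.053, adjusted p = 2e-11). The signal transducer STAT2 was also lower, with 14.9 ± 0.683 CPM in WiDr and 77.6 ± 3.27 CPM in HCT116. Of 28 antigen presentation genes, 4 were higher in WiDr and 7 lower (median log2FC -0.97). B2M, the light chain of MHC class I, overlapped between the lines, with 616, 639.8 and 612 CPM in WiDr, against 657, 647 and 626 CPM in HCT116 (log2FC -0.05, SE 0.028, adjusted p = 0.15). ERAP2, which trims peptides in the endoplasmic reticulum, had 61.3, 62.9 and 61.2 CPM in WiDr, against 0.892, 1.34 and 0.465 CPM in HCT116 (log2FC 6.10, SE 0.24, adjusted p = 2.9e-08). The immunoproteasome subunit PSMB8 averaged 15.3 CPM in WiDr and 1.18 CPM in HCT116, and the invariant chain CD74 7.17 CPM in WiDr and 0.336 CPM in HCT116. MICB, a ligand of the natural killer receptor NKG2D, had 0.0661, 0.191 and 0.225 CPM in WiDr, against 37.5, 39.4 and 40.4 CPM in HCT116 (log2FC -7.86, SE 0.21, adjusted p = 3e-09). HLA-DMB averaged 0.213 CPM in WiDr and 8.1 CPM in HCT116. The class II chain HLA-DRA had no count in WiDr and 16.6 CPM in HCT116. In the list of NF-kB and inflammatory genes, 12 of 34 were higher in WiDr (35.3%) and 7 lower (20.6%, near the share over all genes). The median log2FC was 1.46. LCN2, an iron-binding antibacterial protein, had 486, 501 and 483 CPM in WiDr, against 1.01, 0.638 and 0.93 CPM in HCT116 (log2FC 9.15, SE 0.095, adjusted p = 2.1e-11). The oxidase NOX1 averaged 23.8 CPM in WiDr and 0.159 CPM in HCT116. The urokinase PLAU averaged 1.16 CPM in WiDr and 67 CPM in HCT116, and the cytokine IL18 14.8 CPM in WiDr and 83.9 CPM in HCT116.

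Germline antigens were split by gene. Over all genes 13.4% were higher in WiDr and 18.8% lower. Of 13 cancer-testis and oncofetal genes tested, 3 were higher in WiDr (23.1%) and 6 lower (46.2%), with a median log2FC of -1.76. PRAME had 0.0661, 0 and 0.0499 CPM in WiDr, against 60.3, 68.5 and 63.8 CPM in HCT116 (log2FC -10.61, SE 0.22, adjusted p = 6.9e-10). MAGEA2 averaged 0.449 CPM in WiDr and 49.9 CPM in HCT116. The 3 higher genes, named after their values were seen, were low in both lines: MAGEA12, GAGE1 and STK31 averaged 0.577, 0.879 and 1 CPM in WiDr. Of 20 imprinted genes, 2 were higher in WiDr and 8 lower (median log2FC -0.79). PLAGL1 averaged 0.0497 CPM in WiDr and 13.7 CPM in HCT116, and ZDBF2 0.0379 CPM in WiDr and 11.8 CPM in HCT116. DIRAS3 had no count in WiDr and 7.49 CPM in HCT116. GRB10, a brake on insulin signalling, was higher, with 144 ± 4.27 CPM in WiDr and 29.2 ± 1.44 CPM in HCT116 (log2FC 2.30, SE 0.047, adjusted p = 6.4e-10), but ONT gave 22.2 and 28.3 CPM in WiDr, under the HCT116 level. Gastric and hepatic genes gave 9 higher (52.9%) and 6 lower (35.3%) of 17, with a median log2FC of 2.62. The protease inhibitor SERPINA1 had 505, 490.4 and 503 CPM in WiDr, against 7.97, 7.06 and 8.93 CPM in HCT116 (log2FC 5.97, SE 0.076, adjusted p = 5.9e-11). RBP4, the plasma retinol carrier, averaged 6.57 CPM in WiDr and 0.201 CPM in HCT116. The fibrinogen chain FGA had 0 CPM in every WiDr library, against 3.09, 10.8 and 11.6 CPM in HCT116, where replicate 1 of HCT116 was well below the others.

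Drug metabolism and transport genes were higher in WiDr in 23 of 49 tested (46.9%) and lower in 10 (20.4%), with a median log2FC of 1.12. Over all genes 13.4% were higher and 18.8% lower. The summed level of the list was 8166 to 8232 CPM in WiDr and 2484 to 2534 CPM in HCT116. ALDH1A1 (ENSG00000165092, GRCh38 chromosome 9, 72900662 to 73080442), which oxidises retinal and aldehydes, had 1918, 1944 and 1982 CPM in WiDr, against 8.37, 19 and 16.6 CPM in HCT116 (log2FC 7.06, SE 0.27, adjusted p = 2.8e-08). GPX2, the glutathione peroxidase of the gut, had 1224, 1239 and 1190.0 CPM in WiDr, against 0.342, 0.896 and 0.735 CPM in HCT116 (log2FC 10.85, SE 0.16, adjusted p = 9.7e-11). The glucuronidation enzymes UGT1A10 and UGT1A8 averaged 155 and 19.2 CPM in WiDr, with 0.095 CPM and no count in HCT116. UGT1A genes share their last exons, so these levels are uncertain. The efflux pumps ABCC2 and ABCB1 ran the other way. ABCC2 had 0, 0.0957 and 0.2 CPM in WiDr, against 33.4, 36.2 and 34.7 CPM in HCT116 (log2FC -8.31, SE 0.36, adjusted p = 6.1e-08). ABCB1, P-glycoprotein, had 0 CPM in every WiDr library, against 8.94, 9.92 and 9.63 CPM in HCT116. The aldose reductase AKR1B1 averaged 0.314 CPM in WiDr and 66.9 CPM in HCT116.

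PRMT1 and PRMT5, which are among the targets of the series' inhibitors, were read at over 70 CPM in every library of both lines. They differed by less than 4-fold. PRMT1 had 307, 309 and 305 CPM in WiDr, against 239.7, 249 and 231 CPM in HCT116 (log2FC 0.35, SE 0.033, adjusted p = 1e-05). PRMT5 had 73, 73.8 and 71.9 CPM in WiDr, against 147, 155 and 147 CPM in HCT116 (log2FC -1.04, SE 0.035, adjusted p = 1.2e-08). Of 28 PRMT and methionine cycle genes, 2 were higher in WiDr and 2 lower (median log2FC -0.60). This is 7.14% in each direction, beside 13.4% higher and 18.8% lower over all genes. The counts were 1 and 1 without the count filter and with the replicate block. The higher count was also 1 without WiDr replicate 1, 2 or 3, without HCT116 replicate 1 and with all short-read libraries in the fit, and the lower count 1 without HCT116 replicate 3. WDR77, the partner that PRMT5 needs for activity, had 58.3, 64.1 and 56.8 CPM in WiDr, against 11.2, 11.2 and 11.6 CPM in HCT116 (log2FC 2.40, SE 0.066, adjusted p = 3.4e-09). The liver enzyme MAT1A averaged 0.0457 CPM in WiDr and 7.38 CPM in HCT116. MTAP, whose loss sensitises tumours to PRMT5 inhibition, averaged 133 ± 3.89 CPM in WiDr and 249 ± 1.41 CPM in HCT116 and was not called (log2FC -0.91).

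Few housekeeping or mitochondrially encoded genes reached the 4-fold limit. Of 28 common housekeeping genes 0 were called higher in WiDr by edgeR and 1 lower (3.57%), beside 13.4% and 18.8% over all genes. Of the 28, 25 passed the adjusted p at any size. The lower gene, POLR2A, the largest subunit of RNA polymerase II, had 106, 100.7 and 98.5 CPM in WiDr, against 489, 505 and 518 CPM in HCT116 (log2FC -2.31, SE 0.038, adjusted p = 2e-10). Of 13 mitochondrially encoded genes, 1 was called. MT-ND3, a complex I subunit, had 169 ± 3.01 CPM in WiDr and 937 ± 30.3 CPM in HCT116 (log2FC -2.47, SE 0.031, adjusted p = 5.8e-11). Genes with a count of 0 in all 6 vehicle and GSK715 libraries of WiDr but at least 5 CPM in each HCT116 vehicle library numbered 77, of which 65 code for proteins. The reverse, 0 in the 6 vehicle and GSK715 libraries of HCT116, held for 29 genes, of which 22 code for proteins.

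Neighbouring genes differed together in several regions. Over 11515 genes with a mean of at least 5 CPM, the median log2FC was 0.01. By chromosome it was highest on 13 (0.57), 11 (0.46), 7 (0.41) and 20 (0.39) and lowest on 22 (-0.49), 14 (-0.44), 3 (-0.35) and 17 (-0.32). In 1070 windows of 40 neighbouring genes with a step of 10, which overlap, the median was above 1 in 30 and below -1 in 14. Windows named below leave out any that overlaps a more extreme one. The highest window lay on chromosome 17 from 34961530 to 38735044 (GRCh38), from ZNF830 to CISD3, with a median of 1.55 and 38 of 40 genes higher in WiDr. It was followed by chromosome 11 from 392614 to 2001470 (1.53, 35 of 40), which holds MUC2 and MUC5AC, and chromosome 8 from 123041968 to 141432454 (1.51, 33 of 40), which holds MYC. The lowest lay on chromosome 19 from 17226204 to 18621039 (-1.38, 30 of 40 lower in WiDr), on chromosome 19 from 6375148 to 8439017 (-1.26, 35 of 40 lower), which holds INSR, and on chromosome 8 from 22367249 to 29350668 (-1.16, 34 of 40 lower), which holds LOXL2. In the GSK715 libraries these 6 windows had medians of 1.45, 1.49 and 1.01, and of -1.46, -1.19 and -1.19.

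**Figure D5:**
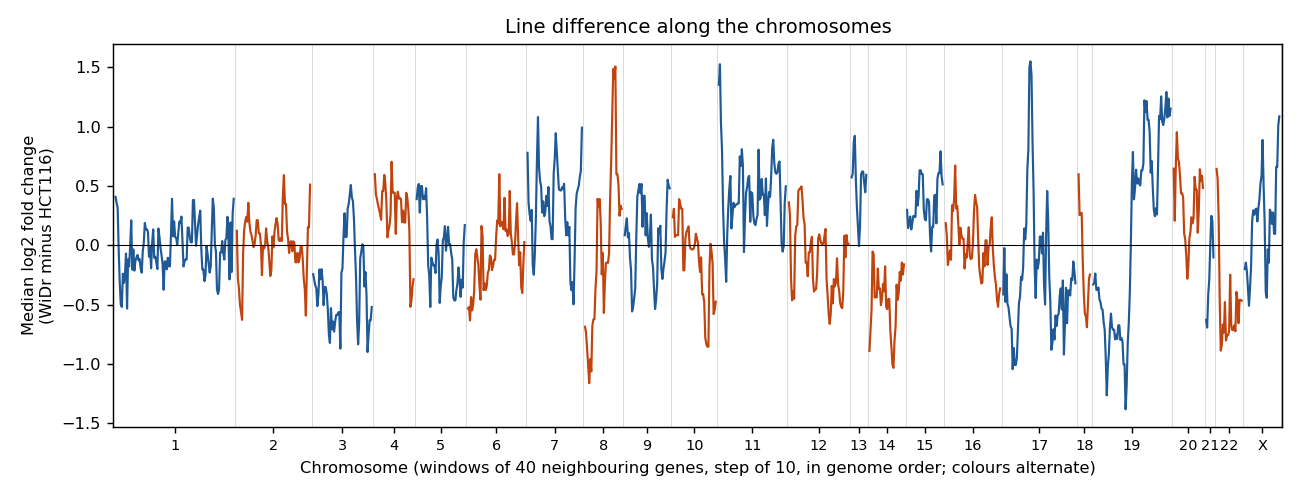
Median log2FC (WiDr minus HCT116, vertical axis) of windows of 40 neighbouring genes with at least 5 CPM, in genome order along the horizontal axis, with colours alternating between chromosomes. Peaks reach 1.55 on chromosome 17, 1.53 on chromosome 11 and 1.51 on chromosome 8, and the lowest point is -1.38 on chromosome 19.

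Some of the levels above are uncertain because exons overlap with another gene by at least 10% and the strand of the libraries is not stated. This holds for AXIN2, CD68, CDH3, CEACAM5, DUSP6, FAM3D, HBE1, HOXA11, IFITM2, IFITM3, ITGB6, LYZ, MSH6, PLAU, PRMT5, PSMB8, RNF43, TGFB2, TMEM238L, UGT1A8, UGT1A10, VIL1, VIM and WDR77. The IFITM, CEACAM, HLA, GAGE and MAGEA genes and the trypsinogens have near-identical relatives between which reads can be split.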

How the data were processed

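Per the labels, poly(A)-enriched libraries were read in pairs on an Illumina instrument. The short-read tables that the authors deposited give raw gene counts. The submitters' processing notes list HISAT2, StringTie, cutadapt, Salmon, minimap2 and DESeq2 and GRCh38, with neither versions nor roles, and annotation release and strand are not given in the sources used here. The deposited ONT table holds estimated counts, used as CPM for description.

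Samples were grouped by line and compound. There are 63086 gene IDs for WiDr and 60612 for HCT116. Of these, 60259 are shared and 58072 of the shared IDs are in GENCODE 29, which gave positions and overlaps. edgeR 4.0.16 under R 4.3.3 fitted the 6 libraries (filterByExpr with minimum count 10 and total 15, TMM, quasi-likelihood F-test, Benjamini-Hochberg adjustment). The SE is the size of the log2FC over the root of F. The NCAM1 interval is exact binomial, and it and the floor of 3 counts per line cover counting error only. On simulated data of this comparison, 100 of 100 genes with an 8-fold change, 0 of 100 with a 2-fold change and 2 of 18760 unchanged genes were called. The changed genes had a mean of at least 1 CPM and changed evenly in both directions. The simulation therefore does not test the scaling between lines that differ as widely as these, or changes in genes under that level.

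Named genes were the 12 largest differences in each direction above 20 CPM with separate libraries, up to 3 called members per direction of each of 27 lists above 5 CPM, and a fixed set of gut and cancer genes. The epithelial and other-cell markers, and genes said to be picked after their values were seen, came beside these. Printed promoters exclude chromosome 8. The members and lists were chosen with earlier results of these data known. Replicate numbers did not pair the libraries of the lines (correlations of deviations -0.014, -0.0065 and 0.025). Alternatives were RLE and total scaling, no count filter, DESeq2 1.42.0, glmTreat, other fold thresholds, a replicate block, left-out replicates, all short-read libraries in the fit and no mitochondrial genes. Some named genes and 1 list are not reported here. The comparisons of ONT with short reads were chosen after seeing the data and use means of log2(CPM + 0.5) over genes with at least 10 CPM by ONT and 5 CPM by short reads for the response.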

Additional observations from a re-analysis of the deposited data

Results flagged for a closer look

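The line difference changed by at least 4-fold between DMSO and GSK715 for 15 of 73 named genes (edgeR interaction term, adjusted p under 0.05). These 73 genes had a mean of at least 1 CPM in all 4 groups. Among all 22298 genes in that fit, with no limit on CPM, it changed as much for 2259 (10.1%). Many named genes were picked by their line difference with DMSO, which enters this term, so the shares cannot be compared. Values below are the log2FC of WiDr over HCT116 with DMSO minus that with GSK715, so they involve the inhibitor's effect in each line. The line difference was more positive with DMSO for SESN2 (4.37), KRT80 (4.42), KRT17 (4.34), GRB10 (3.35), GDF15 (3.33), SMAD7 (2.82), EGR1 (2.48), CDKN1A (2.30) and DUSP6 (2.15). It was more negative with DMSO for TP53INP1 (-3.52), TGFBR3 (-3.11), KRT23 (-3.10), EPM2AIP1 (-2.21), CDKN1C (-2.09) and HOXB13 (-2.06). SESN2 averaged 26.9 CPM in WiDr and 69.9 CPM in HCT116 with GSK715, against 200.0 CPM in WiDr and 24.2 CPM in HCT116 with DMSO. By short reads the order of the lines thus turned round. By ONT, however, vehicle-treated WiDr had 21 and 20 CPM for SESN2, already under the HCT116 short-read level with DMSO. The ONT means of GRB10 and HOXB13 in vehicle-treated WiDr, 25.2 and 13.7 CPM, also lay on the other side of the HCT116 short-read level. By short reads, WiDr averaged 144 CPM with DMSO and 22.35 CPM with GSK715 for GRB10, and 2.84 and 7.31 CPM for HOXB13. For SESN2, GRB10 and HOXB13 the ONT vehicle level was thus nearer the short-read level with GSK715. These genes were picked for their gap between ONT and short reads. Their bearing on the reading of the NC columns was not tested. By short reads the order of the means turned round for GRB10, KRT23, EPM2AIP1 and GDF15 as well. With GSK715, GRB10 averaged 22.35 CPM in WiDr and 47.8 CPM in HCT116. KRT23 averaged 4.43 and 2.53 CPM with GSK715, against 2.4 and 11.3 CPM with DMSO. EPM2AIP1 averaged 10.2 and 4.88 CPM with GSK715, against 7.19 and 15.35 CPM with DMSO. GDF15 averaged 100.5 CPM in WiDr and 233 CPM in HCT116 with GSK715. With DMSO, GDF15 averaged 541 CPM in WiDr and 119.7 CPM in HCT116. CDKN1A averaged 47.2 CPM in WiDr and 382 CPM in HCT116 with GSK715, against 177 CPM in WiDr and 279 CPM in HCT116 with DMSO. The libraries with GSK715 and DMSO also differ in the share of mitochondrial counts, at 8.34% to 8.88% with GSK715 and 6.09% to 6.51% with DMSO in WiDr. In HCT116 it was 5.09% to 5.42% with GSK715 and 8.65% to 9.10% with DMSO. The part of this share in these values was not tested.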

How the results depend on the processing

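The count of calls with DMSO was 6282 (2609 higher and 3673 lower in WiDr). A 2-fold threshold gave 10265 (4661 and 5604), and an 8-fold threshold left 4271 (1590 and 2681), as fewer genes reach a larger fold. Within 1.5 times were RLE scaling (6279), library totals (6295), no count filter (7210), DESeq2 (6300), glmTreat against 4-fold (4749), all short-read libraries in the fit (7247) and no mitochondrial genes (6284). Leaving out each replicate gave 6582 to 6632 calls (2571 to 2851 higher and 3773 to 4014 lower). With the replicate number as a block there were 6056 calls (2488 and 3568); the numbers do not pair the libraries, and the block changed the call of no named gene. With GSK715, 6790 calls became 6953 with library totals, 6814 with DESeq2, 6498 with the replicate block and 6941 to 7306 with a replicate left out. Library totals moved the median of all genes by -0.07 and RLE by 0.01. The fold thresholds and glmTreat were run on counts only, not on single named genes. Of 165 named genes tested, 163 kept direction and call under the other settings (scaling, count filter, DESeq2, block, all short-read libraries, no mitochondrial genes, left-out replicates), 2 lost the call in a setting and none reversed; CD68 fell under the 4-fold limit in 7 settings (-1.89 to -1.998). Of the counts per list, 13 moved by over 1.5 times, in the cyclin, PRMT and mitochondrial lists, whose counts are 1 or 2. All 6282 calls had the same direction by percentile rank within a library, but the ranks use the same CPM and are no separate check. Exonic length and log2FC had a Spearman rho of 0.087 across 11515 genes, and GC content -0.035. Genes near 0 in a line have folds that rest on few counts.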
